A study of Rattus norvegicus with 12 samples.

Results

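The 10 genes examined here were counted mainly in the liver of one inbred rat strain and far less in that of another: Ubd, Mlc1, Ces2e, Acsm3, Ooep, Lcn3 and Cldn7 in Dark Agouti (DA) rats, and Slc35c2, Clca2 and Erc2 in Lewis (LEW) rats. The members, 10 of 32883 genes in the count tables, were chosen by their unique molecular identifier (UMI) counts per rat in hepatocytes, so their DA to LEW differences are given as a description without a test. The libraries were cells of total liver homogenate (TLH) from 2 DA and 2 LEW rats, given as 8 to 10 weeks old in the series design, nuclei from 2 DA and 2 LEW livers, and immune-enriched cells from 1 library of each strain, which had extra washes and red cell removal. All rats were healthy males with no treatment or engineered allele, and 2 Visium sections of Wistar liver gave another strain. The study's methods give a higher age, and the names of the deposited TLH tables carry a higher age for LEW than for DA rats, so age and strain cannot be told apart in TLH. The series describes the nuclei as coming from additional rats, while rat numbers recur between the deposited names of cells and nuclei, so the number of different rats is not settled.

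Hepatocytes carry out most of the metabolism of the liver and are arranged in lobules, in which blood flows from portal triads to a central vein and many enzymes are restricted to the periportal or the pericentral end. The members belong to unrelated families. Ces2e and Acsm3 are metabolic enzymes, and Slc35c2 is a transporter-like protein of the Golgi. Ubd is a ubiquitin-like modifier, and Cldn7 is a tight junction protein. Mlc1, Erc2 and Ooep are best known from astrocytes, synapses and oocytes. Clca2 belongs to the calcium-activated chloride channel regulators, and Lcn3 to the secreted lipocalins.

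The TLH libraries held 61441846 to 92484173 UMIs, the nuclei 8039397 to 15186970, the immune-enriched libraries 48255870 and 60005133, and the sections 34449562 and 34827603 in 2437 and 2404 spots. Cells and nuclei past the filters were placed in a hepatocyte gate where markers of the other cell classes together had at most 2 UMIs. No hepatocyte marker was required. A cell went to another class by at least 3 UMIs over at least 2 of its markers, where no further class met this. Hepatocyte markers made up 8.40% to 9.65% of UMIs in the TLH hepatocyte gates and 5.69% to 8.64% in the endothelial, macrophage and leukocyte gates. The corresponding values in nuclei were 6.36% to 12.0% and 3.14% to 9.47%. Hepatocyte RNA was thus counted in these 3 other gates too. The paper reports free (ambient) hepatocyte RNA in its TLH and nuclei maps, and the part of it in these shares was not tested. In the immune-enriched DA library the hepatocyte gate held 1.30% hepatocyte marker UMIs, which goes against its name, and the leukocyte gates of both immune-enriched libraries held 0.125% and 1.37%. Nuclei libraries shared 8 to 24 barcodes with one another.

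Ubd (ENSRNOG00000000768) encodes FAT10, an interferon- and tumor necrosis factor-induced modifier that sends proteins to the proteasome. In the TLH hepatocyte gate it had 662 and 697 UMIs in DA-1 and DA-2 and 1 UMI each in LEW-1 and LEW-2. These are 193.0 and 230.0 counts per 1000000 UMIs (CPM) in DA against 0.232 and 0.490 in LEW, and the LEW level was 0.150% of the DA level with a counting interval of 0.0181% to 0.542%. All intervals cover counting error only, at 95%. In nuclei the gene had 29 and 85 UMIs in DA (10.9 and 28.9 CPM) and 0 in both LEW libraries. The level was at least 41.9-fold higher in DA against a floor of 3 counts over the group. Every fold given here as at least sets the observed level against this floor and is not a 95% bound. The 95% interval of the LEW level of Ubd in nuclei reached 2.99% of the DA level. Over all barcodes of the TLH libraries the counts were 14731 and 22436 in DA and 16 and 34 in LEW. DA and LEW values did not overlap in cells or nuclei. The gene was chosen on such counts, and the share of all genes without overlap was not computed, so nothing is read from this.

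Mlc1 (ENSRNOG00000032871), a membrane protein of astrocyte end-feet whose loss causes a leukoencephalopathy with cysts, had 324 UMIs in each DA rat and 0 in each LEW rat in the TLH hepatocyte gate. DA levels were 94.4 and 106.9 CPM, at least 212-fold above LEW. In nuclei the counts were 1240 and 680 in DA and 2 in each LEW library, with 466.0 and 231.0 CPM against 0.536 and 0.820 CPM, and the LEW level was 0.189% of the DA level with an interval of 0.0515% to 0.485%. A UMI of Mlc1 was found in 43.2% and 30.7% of DA nuclei in the gate. Counts were low in LEW throughout, with 10 and 12 UMIs over all TLH barcodes against 5340 and 6898 in DA.

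Ces2e (ENSRNOG00000011635), a carboxylesterase that hydrolyses drugs and lipid esters, was reduced rather than missing in LEW. TLH counts in the hepatocyte gate were 255 and 165 in DA and 7 and 3 in LEW, with 74.3 and 54.5 CPM against 1.63 and 1.47 CPM. In nuclei the 155 and 209 DA UMIs stood against 39 and 30 LEW UMIs, with 58.2 and 71.0 CPM against 10.4 and 12.3 CPM. The LEW level was 2.42% of the DA level in cells (interval 1.15% to 4.50%) and 17.2% in nuclei (interval 13.1% to 22.3%), and these intervals did not overlap. Whether this difference between cells and nuclei exceeds the spread between rats was not tested. Acsm3 (ENSRNOG00000032246), a mitochondrial synthetase that activates medium-chain fatty acids, had 86 and 47 UMIs in DA and 2 and 0 in LEW in TLH, or 25.1 and 15.5 CPM against 0.465 and 0 CPM. In nuclei it had 71 and 128 UMIs in DA and 2 and 6 in LEW, or 26.7 and 43.5 CPM against 0.536 and 2.46 CPM. The LEW level of Acsm3 was 1.53% of the DA level in cells (interval 0.184% to 5.64%) and 3.65% in nuclei (interval 1.55% to 7.33%).

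Ooep (ENSRNOG00000025957), a protein of the maternal complex under the oocyte membrane, had 41 and 63 UMIs in DA and 0 and 2 in LEW in the TLH gate. The DA levels were 12.0 and 20.8 CPM, and the LEW level was 1.96% of the DA level (interval 0.234% to 7.25%). In nuclei it had 270 and 339 UMIs in DA, 101.5 and 115.2 CPM, and 0 in LEW, at least 224-fold less. Over all TLH barcodes, however, 25 and 45 Ooep UMIs were found in LEW against 242 and 499 in DA, a ratio of 8.93%.

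Lcn3 (ENSRNOG00000040188), a lipocalin that carries small hydrophobic molecules, had 47 and 24 UMIs in DA cells of the gate (13.7 and 7.92 CPM) and 0 in LEW, at least 23.2-fold less. It was almost uncounted in nuclei, with 1 UMI in each DA library and 0 in each LEW library, where no fold is given. DA-1 and DA-2 also differed from each other over all TLH barcodes, at 1264 and 611 UMIs. Cldn7 (ENSRNOG00000017325), a claudin of epithelial tight junctions, had 24 and 22 UMIs in DA cells (6.996 and 7.26 CPM) and 0 in LEW cells, at least 15.1-fold less. In nuclei Cldn7 had 14 and 20 UMIs in DA and 1 in each LEW library, a LEW level of 5.34% of that in DA with a wide interval of 0.622% to 20.8%.

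Slc35c2 (ENSRNOG00000018649), a Golgi protein linked to the fucosylation of Notch, kept more counts in its low strain than any other member in TLH cells. The TLH gate held 36 and 21 UMIs in DA and 388 and 161 in LEW, or 10.5 and 6.93 CPM against 90.1 and 78.9 CPM. In nuclei the counts were 50 and 54 in DA and 937 and 1076 in LEW, or 18.8 and 18.3 CPM against 250.9 and 441.0 CPM. The DA level was 10.2% of the LEW level in cells (interval 7.62% to 13.4%) and 5.69% in nuclei (interval 4.63% to 6.93%).

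Clca2 (ENSRNOG00000013771) had 93 and 52 UMIs in LEW cells (21.6 and 25.5 CPM) and 0 in DA cells, and 84 and 28 UMIs in LEW nuclei (22.5 and 11.5 CPM) and 0 in DA nuclei. LEW was higher by at least 49.2-fold in cells and at least 33.9-fold in nuclei. Over all TLH barcodes DA-1 had 1 UMI and DA-2 had 2, against 2359 and 1893 in LEW. Erc2 (ENSRNOG00000015148), a scaffold of presynaptic active zones, had 8 and 10 UMIs in LEW cells (1.86 and 4.90 CPM) and 64 and 52 in LEW nuclei (17.1 and 21.3 CPM), with 0 in all 4 DA gates. The bounds were at least 6.11-fold in cells and at least 35.1-fold in nuclei. Ces2e, Acsm3, Clca2, Lcn3 and Cldn7 have close relatives in the genome, so their counts are uncertain to the extent that reads could not be placed on 1 gene.

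**Figure D1:**
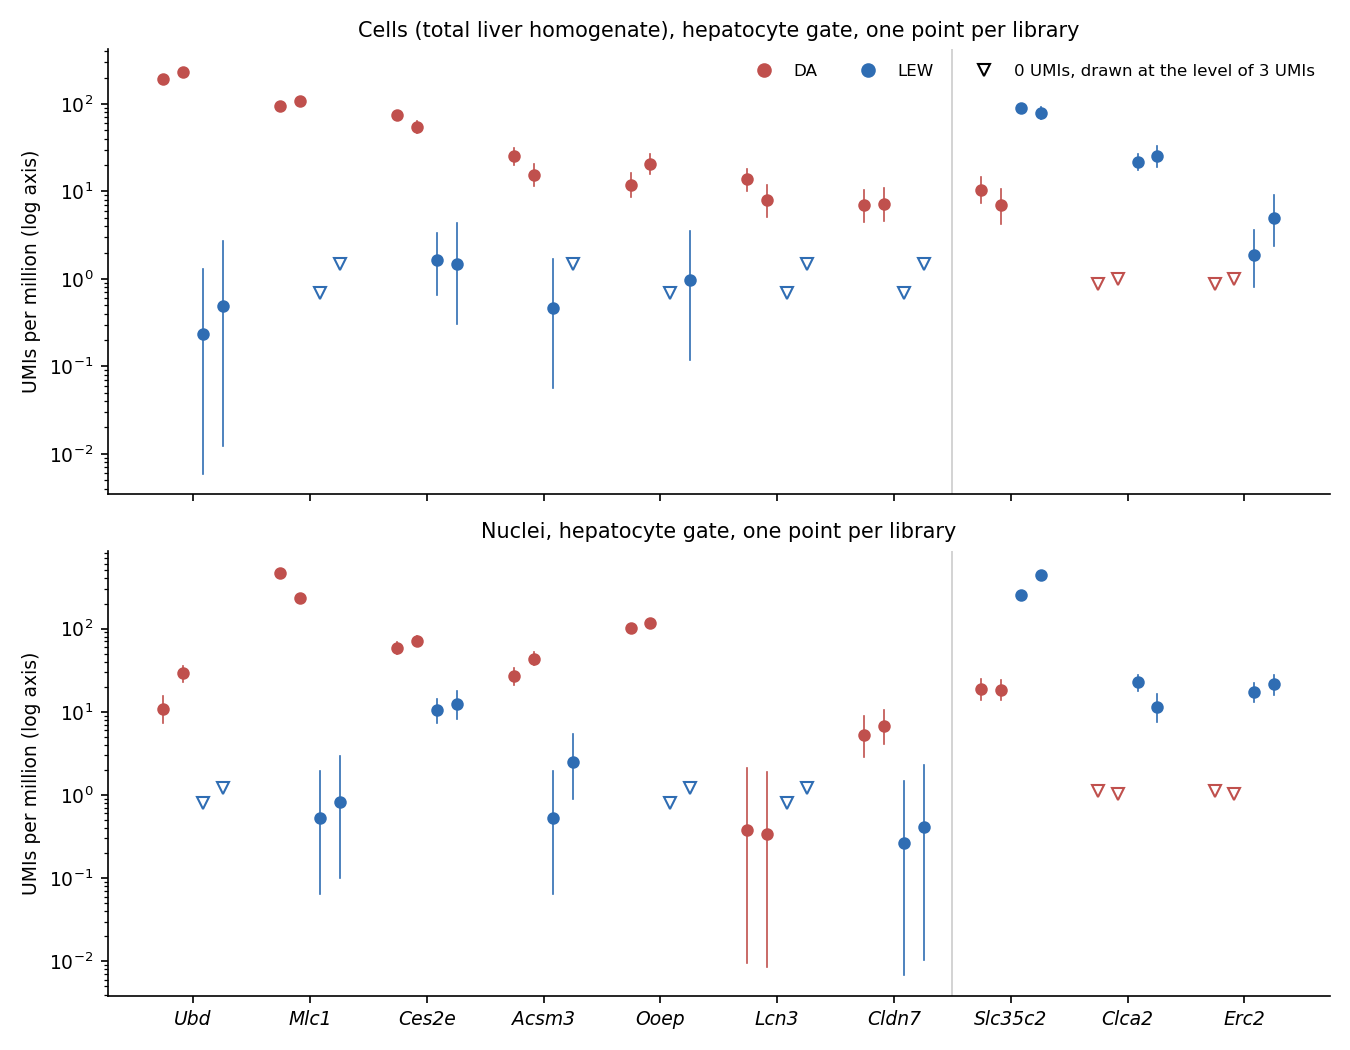
CPM of the 10 genes in the hepatocyte gate of each TLH library (upper panel) and each nuclei library (lower panel), on a log axis, with exact Poisson 95% intervals as bars and open triangles at the level of 3 UMIs where a library had 0. The 7 genes left of the vertical line were high in DA and the 3 right of it in LEW, with Ces2e in nuclei (10.4 and 12.3 CPM in LEW) and Slc35c2 (10.5 and 6.93 CPM in DA cells) well above 0 in the low strain.

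Near-absence was set against all genes that could have shown it. Called near-absent were genes with at most 5% of the CPM of the other strain over its 2 rats, and at least 20 UMIs in each rat of the higher strain. In the TLH gate 8 of 6193 genes (0.129%) were near-absent in LEW, of which 7 were members, and 5 of 5309 (0.0942%) in DA, of which 1 was a member. In nuclei the counts were 11 of 7471 (0.147%), with 4 members, and 13 of 7297 (0.178%), with 2 members. Of 5751 genes, 4 (0.0696%) were near-absent in LEW in both data sets, namely Acsm3, Mlc1, Ooep and Ubd. Of 5008 genes, 2 (0.0399%) were near-absent in DA in both, Clca2 and the uncharacterised LOC100360791. Over all barcodes 6 of 9657 genes (0.0621%) were near-absent in LEW in both data sets and 10 of 10069 (0.0993%) in DA, with 2 members in each. Since the members were chosen on this contrast, nothing is read from their share. LOC100360791 was the single non-member near-absent in both data sets in the hepatocyte gate, with 287 and 187 UMIs in LEW cells and 112 and 55 in LEW nuclei, against 3 and 1 in DA cells and 1 and 0 in DA nuclei. Its DA level was 0.809% of its LEW level over the 8 libraries, against 0% for Clca2. Over all barcodes, where its ratio was 0.646%, the LEW-high non-members RT1-N2 (0.0306%), AABR07024542.1 (0.233%) and AABR07068590.2 (0.441%) had lower ones, and they are named here after their values were seen.

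The promoters of Ubd, Mlc1 and Slc35c2 are shown because these genes had the largest UMI sums of the members in the TLH hepatocyte gate. The sequences are the 250 bases before the RefSeq gene start on the GRCr8 build, which is of the BN strain and is not the Rnor 6.0 build of the counts. RefSeq held a promoter of 9 members, and Clca2 was left out because its symbol is exchanged with that of Clca5 among the RefSeq synonyms. Capitals mark a match on either strand to 1 of 9 short motifs: the TATA box TATAAA, the CAAT box CCAAT, the GC box GGGCGG, the C/EBP half-site TTGCG, the HNF4 repeat CAAAGTCCA, the HNF1 half-site GTTAAT, the NF-kB consensus, the gamma-activated sequence TTCNNNGAA and the E-box CACGTG.
Ubd, chr20:1392686-1392935, minus strand: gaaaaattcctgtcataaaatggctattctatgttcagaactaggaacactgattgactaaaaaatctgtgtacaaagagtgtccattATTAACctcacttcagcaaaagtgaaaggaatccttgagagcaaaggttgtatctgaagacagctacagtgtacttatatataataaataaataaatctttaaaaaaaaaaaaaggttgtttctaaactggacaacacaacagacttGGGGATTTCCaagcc
Mlc1, chr7:121946699-121946948, minus strand: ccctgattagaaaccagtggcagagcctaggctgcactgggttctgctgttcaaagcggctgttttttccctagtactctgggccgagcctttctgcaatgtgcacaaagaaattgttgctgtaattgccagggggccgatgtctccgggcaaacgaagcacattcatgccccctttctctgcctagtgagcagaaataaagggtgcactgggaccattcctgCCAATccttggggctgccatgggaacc
Slc35c2, chr3:174442783-174443032, minus strand: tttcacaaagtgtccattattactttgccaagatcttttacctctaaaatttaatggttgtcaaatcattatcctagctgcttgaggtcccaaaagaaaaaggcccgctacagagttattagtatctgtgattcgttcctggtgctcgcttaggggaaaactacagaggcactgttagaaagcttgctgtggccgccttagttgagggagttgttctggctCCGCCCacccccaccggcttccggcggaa
The Ubd promoter held ATTAAC, the reverse complement of the HNF1 half-site GTTAAT, at 162 to 157 bases before the start, and the NF-kB consensus match GGGGATTTCC at 15 to 6 bases. Among 33469 rat promoters of this length, 6.45% held the first and 6.33% the NF-kB consensus. The Mlc1 promoter held CCAAT at 27 to 23 bases before the start (34.0% of promoters) and the Slc35c2 promoter held CCGCCC, the reverse complement of GGGCGG, at 29 to 24 bases (30.5% of promoters). Ubd had 32.8% G and C, Mlc1 53.6% and Slc35c2 46.8%, against a median of 51.2%. The other searched motifs were not in these 3 windows, and TATAAA was in none of the 9 member promoters (12.9% of all promoters). These matches are descriptions of the BN sequence and do not show binding.

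Over all barcodes, which are mostly of low depth in TLH, the 9 members counted in the immune-enriched libraries were higher there in the same strain as in TLH, and Lcn3 had 0 UMIs in both. The share of all genes that kept their strain in these libraries was not computed, so nothing is read from the 9. Ubd had 401 UMIs in DA and 2 in LEW there, Mlc1 517 and 7, Acsm3 75 and 8, and Cldn7 44 and 7. Ces2e had 751 UMIs in DA and 115 in LEW, a ratio of 12.3%. Clca2 had 1 UMI in DA and 733 in LEW, Slc35c2 had 292 and 4368, and Erc2 had 0 and 87. Ooep stood apart, with 210 UMIs in DA and 95 in LEW, a ratio of 36.4% (interval 28.2% to 46.6%), against 0.350% over all barcodes of nuclei. Of the 95 UMIs 60 lay in 2 barcodes, without which the ratio was 13.4% (interval 9.10% to 19.3%). Among immune-enriched cells past the filters Slc35c2 in DA was at 33.5% of its LEW level, against 8.31% over all barcodes. Ooep had 77 UMIs in DA and 91 in LEW there, at 7.92 and 2.27 CPM. The ratio of Clca2 was also higher there than over all barcodes, and those of Ubd, Mlc1, Ces2e, Acsm3, Cldn7 and Ooep were lower. In the hepatocyte gate Acsm3 had 1 UMI in each library, and Ces2e had 6 in DA and 9 in LEW. With 1 library per strain these values have no replicate check.

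The Wistar sections did not follow either strain as a whole. Mlc1 had 3966 and 4029 UMIs in sections A and B, in 73.8% and 73.3% of spots, and Ces2e 2137 and 2426 UMIs, in 53.8% and 56.4% of spots. Acsm3 had 337 and 448 UMIs, in 12.8% and 16.5% of spots. These 3 genes of DA were thus counted in Wistar liver. Slc35c2, the LEW gene, was counted as well, with 3981 and 4055 UMIs in 74.0% and 74.8% of spots. Of the other DA genes, Ubd had 4 and 1 UMIs, Cldn7 6 and 3, Ooep 18 and 2, and Lcn3 0 in both sections. Of the other LEW genes, Clca2 had 2 and 0 UMIs and Erc2 0 in both. A count of 0 allows a UMI of the gene in up to 0.123% and 0.125% of the spots of sections A and B (3 counts of the total), which limits spots with a UMI and not spots that express the gene. In CPM, Mlc1 was at 115.1 and 115.7, Slc35c2 at 115.6 and 116.4, Ces2e at 62.0 and 69.7, and Acsm3 at 9.78 and 12.9. Wistar was measured by Visium alone, so strain and assay cannot be told apart, and a spot holds several cells.

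**Figure D2:**
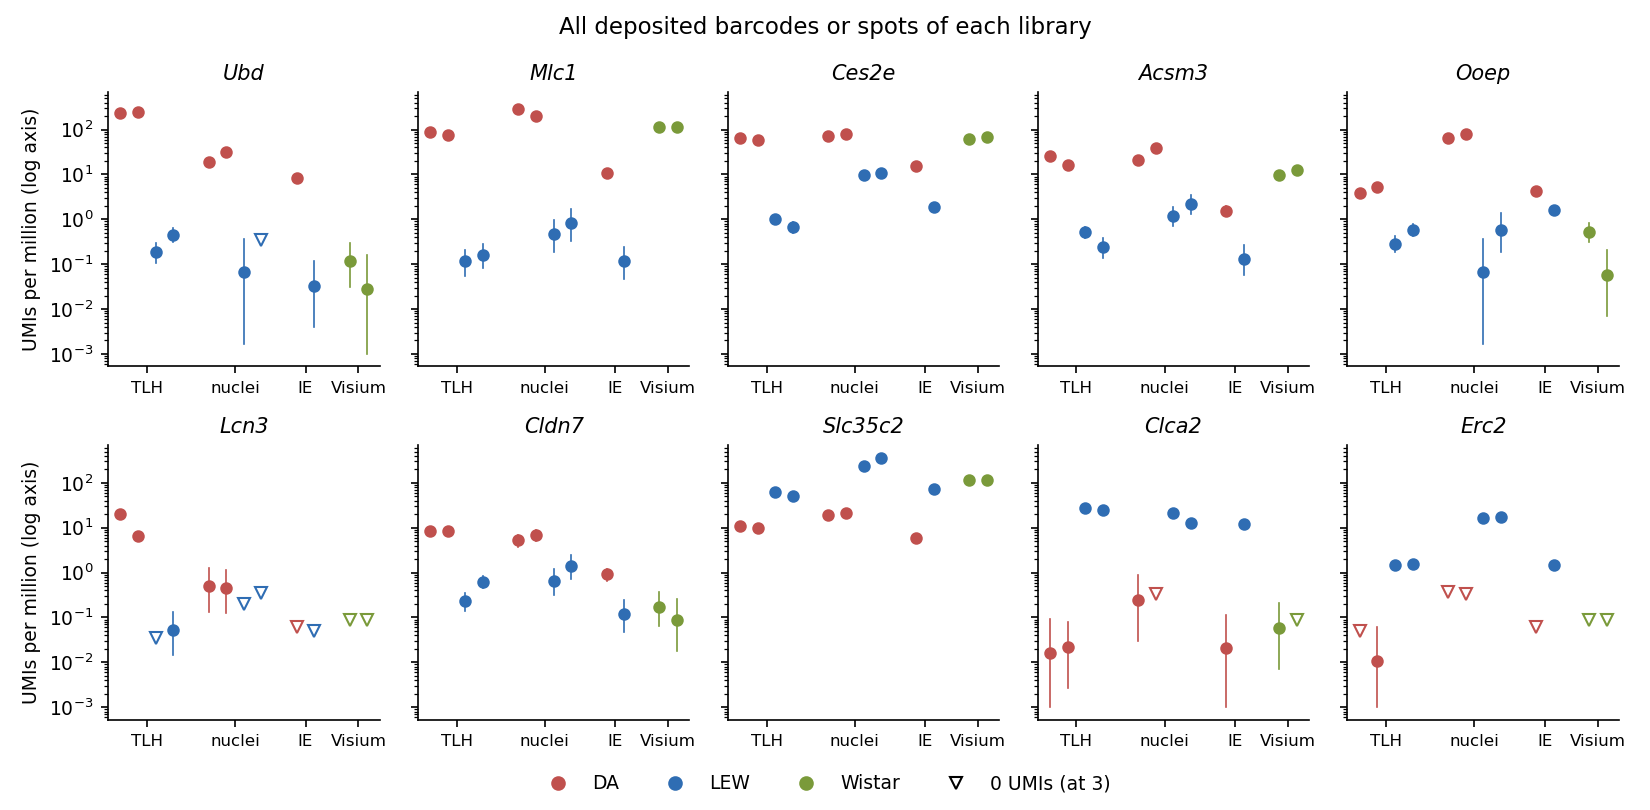
CPM of each gene over all barcodes of the TLH, nuclei and immune-enriched (IE) libraries and all spots of the Wistar sections (Visium), on a log axis with exact Poisson 95% intervals; open triangles stand at 3 UMIs for libraries with 0. Wistar points sit at 115.1 and 115.7 CPM for Mlc1 and at 115.6 and 116.4 CPM for Slc35c2, a DA gene and a LEW gene, and near 0 for Ubd, Lcn3, Cldn7, Clca2 and Erc2.

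The name of the set, hepatocyte genes, was examined by setting the hepatocyte gate beside all other gates of the same rats, in the strain that counts each gene. The hepatocyte counts also chose the members, so these differences are a description and no p of a single member is given. Counts of members past the edgeR threshold rest on the same hepatocyte counts. They are therefore not read as a test of the name or as support for it. In TLH 9 members passed the low-count filter (Erc2 did not). The log2 differences were 1.38 ± 0.24 for Ooep (SE), 0.54 ± 0.10 for Mlc1, 0.44 ± 0.11 for Slc35c2 in LEW and 0.35 ± 0.12 for Ces2e, and these 4 were past the edgeR threshold, as were 10.4% of all genes in DA and 5.64% in LEW with a higher hepatocyte level. Ooep was at 12.0 and 20.8 CPM in the hepatocyte gates of DA and at 4.70 and 9.31 CPM in the other gates. Ces2e was at 74.3 and 54.5 CPM against 59.1 and 53.9 CPM, so DA-2 hardly differed before the TMM scaling, which added 0.101 to 0.214 to each TLH log2 difference. With DESeq2 0 members were past the threshold, where 1.81% of all genes in DA and 0.647% in LEW were, with a higher hepatocyte level. In edgeR with the rat left out of the fit 0 were, against 0.88% and 0.212% of all genes. The mesenchymal gate is part of the other gates here. With the mesenchymal gate left out 4 DA genes and 1 LEW gene were past the threshold, against 15.7% and 13% of all genes.

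The other TLH differences were 0.37 for Clca2, 0.25 for Acsm3, 0.18 for Lcn3, 0.12 for Ubd and -0.01 for Cldn7. Ubd had a UMI in 27.6% and 41.6% of DA cells of the hepatocyte gate, at median depths of 1711 and 2369 UMIs, and in 30.3% and 40.3% of cells of the leukocyte gate, at 1771.5 and 2614.5 UMIs. The hepatocyte share was thus below the leukocyte share in DA-1 and close to it in DA-2, and is not read as a difference between these gates. The part of free RNA in it was not tested. For Mlc1 the shares were 15.3% and 22.8% in the hepatocyte gate and 8% and 14.2% in the leukocyte gate. In the immune-enriched DA library, whose leukocyte gate held little hepatocyte RNA, Ubd had 4 UMIs in 3 of 367 leukocyte-gated cells and Mlc1 had 3 UMIs in 3 cells.

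In nuclei 0 of the 9 members with enough counts (all but Lcn3) were past the same threshold in edgeR. Of all genes 12.2% were in DA and 6.29% in LEW, with 1.24% and 0.76% higher in the hepatocyte gate. With DESeq2 0 members were past it too, against 6.33% of all genes in DA and 1.78% in LEW. Unadjusted p in edgeR was under 0.05 for 5 of the 9 members. The share of all genes under that cut was not computed, so nothing is read from the 5. The mesenchymal gate took up nuclei with Dpt and Cxcl12, which were at hepatocyte level here. With those 2 markers left out 7 members were past the threshold, all higher in the hepatocyte gate, where 18.6% of all genes were so in DA and 9.83% in LEW. With the mesenchymal gate left out 5 were, against 11.9% and 7.69% of all genes. Without LEW-1 4 DA genes were, against 11.2% of all genes in DA, and without LEW-2 3 DA genes were, against 9.33%. Clca2 in LEW nuclei was at 22.5 and 11.5 CPM in the hepatocyte gate and at 5.82 and 2.72 CPM in the other gates without the mesenchymal gate, from 2 and 1 UMIs.

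Slc35c2 was counted outside hepatocytes in both strains. In the leukocyte gate of the immune-enriched libraries, in which all 23 leukocyte markers were counted, it had 75 UMIs in 44 of 367 DA cells and 35 UMIs in 27 of 229 LEW cells. These are 47.9 CPM in DA (interval 37.7 to 60.0) and 35.1 CPM in LEW (interval 24.5 to 48.8), intervals that overlap. The endothelial gates held 36.2 and 27.4 CPM from 11 and 13 UMIs. In the TLH leukocyte gate Slc35c2 was at 42.7 and 48.6 CPM in DA and at 70.4 and 71.9 CPM in LEW. In DA cells it was at 16.01 and 14.4 CPM in the other gates together and at 10.5 and 6.93 CPM in the hepatocyte gate, a difference given without a test because the low DA hepatocyte count chose the gene. In nuclei, Slc35c2 in the endothelial gate was at 47.8 and 26.7 CPM in DA and at 321 and 346 CPM in LEW.

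**Figure D3:**
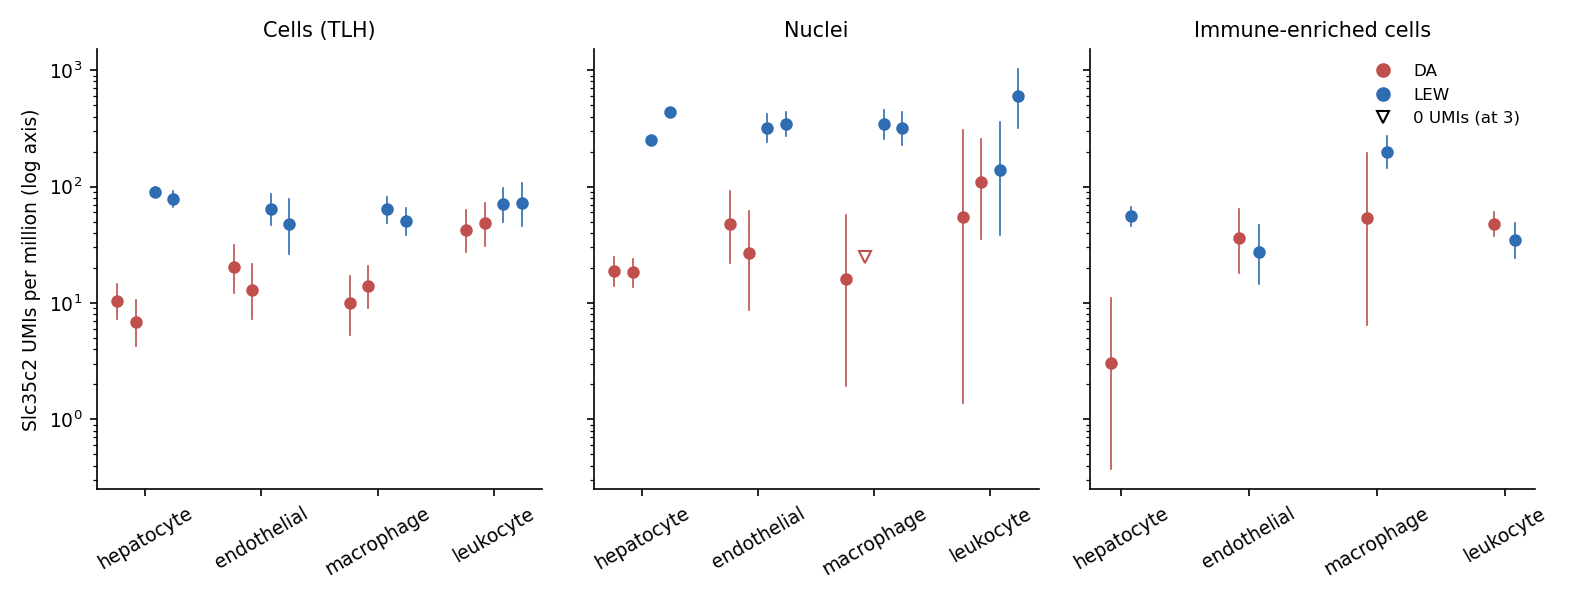
Slc35c2 in CPM, on a log axis, in 4 gates of TLH cells, nuclei and immune-enriched cells, 1 point per library with exact Poisson 95% intervals and an open triangle at 3 UMIs for a library with 0. In the immune-enriched leukocyte gate DA (47.9) and LEW (35.1) lie together, while in the hepatocyte gate of TLH cells DA (10.5 and 6.93) lies below LEW (90.1 and 78.9).

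Zonation was not used to choose the members. Hepatocyte-gated nuclei of each library were split into 3 equal parts by a score of periportal minus pericentral marker genes. The outer parts were compared within libraries, each member in the strain that counts it. Of the 5 DA genes tested 5 passed in DA, where 33.5% of all genes did, 19.5% with higher pericentral and 14.1% with higher periportal values: Acsm3, Ubd and Ces2e were higher in the pericentral part and Mlc1 and Ooep in the periportal part. Acsm3 was at 30.7 and 58.8 CPM in the pericentral and at 13.9 and 28.9 CPM in the periportal parts of DA-1 and DA-2. Its log2 difference was 1.47 ± 0.32 (edgeR adjusted p = 6.28e-05). Ubd was at 15.4 and 43.5 CPM against 5.58 and 17.8 CPM, a difference of 1.73 ± 0.40 (edgeR adjusted p = 0.000172). Both DA libraries moved the same way for each of these genes.

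Ooep was at 62.8 and 65.9 CPM in the pericentral and at 143 and 172 CPM in the periportal parts, a log2 difference of -0.88 ± 0.21 (edgeR adjusted p = 0.000337). Mlc1 was at 233 and 186 CPM against 622 and 260 CPM, a difference of -0.55 ± 0.19 (edgeR adjusted p = 0.0193). Most of the Mlc1 difference came from DA-1, without which it was -0.15 (edgeR adjusted p = 0.646), and its call was also lost without either LEW library (0.0523 and 0.112). Ces2e was at 74.0 and 73.0 CPM against 33.5 and 67.0 CPM, a difference of 0.97 ± 0.25 (edgeR adjusted p = 0.00079), which was 0.45 (0.297) without DA-1. Ubd lost its call without DA-2 (0.167). TMM scaling added 0.435 and 0.407 to the log2 difference of every gene in DA-1 and DA-2, whose medians before scaling were -0.49 and -0.39, and the signs of these 5 genes were the same with and without it.

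The pericentral parts of DA were shallower, with medians of 1228 and 1381 UMIs per nucleus against 2129.5 and 2234 in the periportal parts. When depth was taken out of the score, where 18.4% of all genes passed in DA, Acsm3 alone of the 5 genes did, at 1.36 (edgeR adjusted p = 9.33e-05), with 36.8 and 67.4 CPM against 15.1 and 30.9 CPM. The others were at 0.87 for Ubd (0.105), -0.39 for Ooep (0.0946), -0.26 for Mlc1 (0.173) and 0.13 for Ces2e (0.739). Acsm3 was also the sole call with a shorter zone marker list, at 1.44 (edgeR adjusted p = 0.000102). Of all genes 5.58% passed in DA with that list. DESeq2 passed 0 of the 5, with adjusted p from 0.0719 for Acsm3 to 0.215 for Mlc1 and none for Ubd. It passed 16.1% of all genes in DA. In edgeR without the rat as a block 0 of the 5 passed, with adjusted p from 0.202 to 0.450. That fit passed 0.748% of all genes in DA, so its 0 is not read as a result about these members. Cldn7 was not tested for zone because of its low counts, which were 2 and 2 UMIs in the pericentral and 9 and 15 in the periportal parts of DA-1 and DA-2. Lcn3 had 1 UMI in the pericentral part of each DA library and 0 in the periportal part.

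Of the 3 LEW genes 0 passed the zone test of edgeR in LEW, where 5.68% of all genes passed. Erc2 alone had an unadjusted p under 0.05. The share of all genes under that cut was not computed, so nothing is read from it. DESeq2 also passed 0 of the 3, where 2.13% of all genes passed in LEW, and gave Clca2 and Erc2 no adjusted p. The log2 differences were 0.55 ± 0.42 for Clca2 (edgeR adjusted p = 0.547), -0.32 ± 0.19 for Slc35c2 (0.370) and -0.87 ± 0.36 for Erc2 (0.152). Erc2 had 16 and 12 UMIs in the pericentral and 35 and 30 in the periportal parts of LEW-1 and LEW-2. Slc35c2 was at 222 and 378 CPM against 323 and 512 CPM, lower in the pericentral part of both libraries. With the shorter zone marker list its log2 CPM differences were 0.17 and 0.07, so this direction was not kept. Those of Erc2 were 0.10 and -0.70 with that list, and those of Clca2 0.44 and 1.18.

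In the Wistar sections, 3 equal parts of the spots by the same score gave 112 and 115 CPM of Mlc1 in pericentral and 118 and 110 CPM in periportal spots, and 115 and 115 CPM against 122 and 119 CPM of Slc35c2. Acsm3 was at 10.4 and 15.2 CPM against 10.4 and 11.8 CPM. Ces2e was at 47.6 and 43.8 CPM in pericentral and at 76.9 and 93.2 CPM in periportal spots, lower in the pericentral part of both sections, where DA nuclei had it higher. In LEW nuclei Ces2e had 8 and 6 UMIs in the pericentral and 27 and 16 in the periportal parts.

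**Figure D4:**
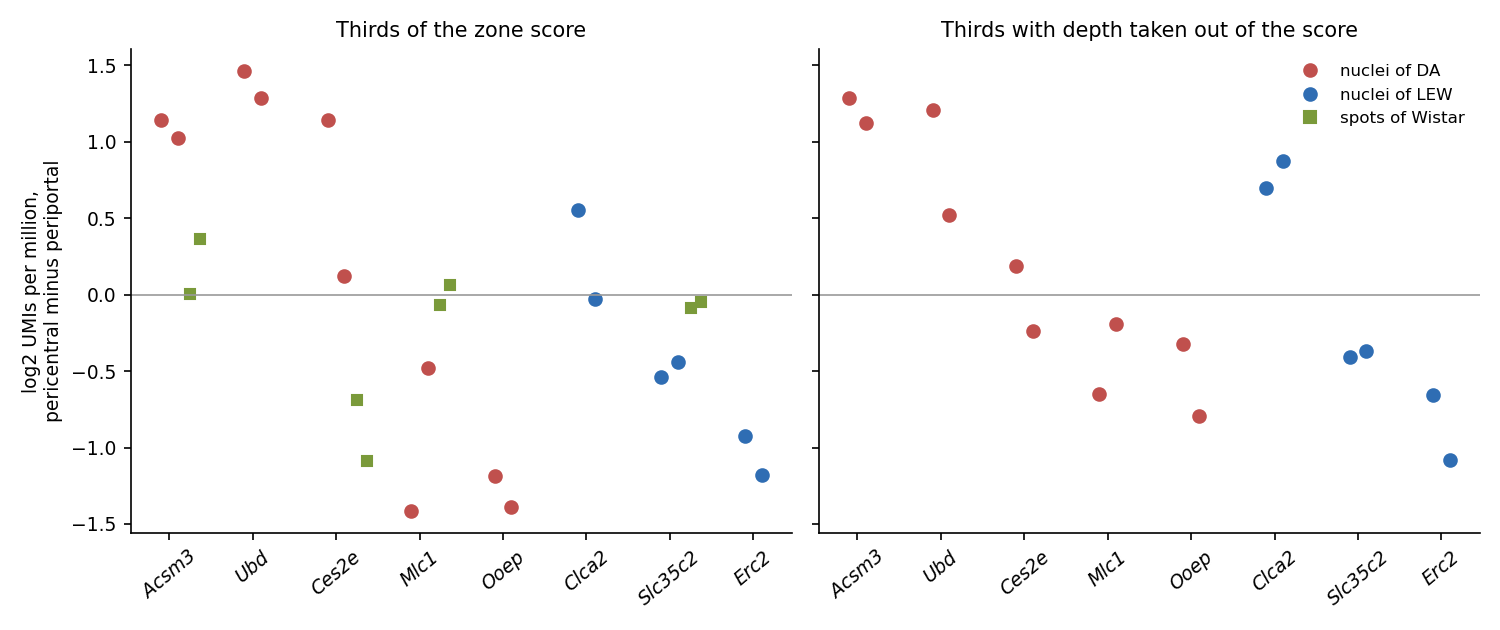
Log2 difference of CPM between pericentral and periportal parts, 1 point per library or section, without TMM scaling; the left panel uses the zone score and the right panel the score with depth taken out (nuclei alone). Acsm3 in DA nuclei stays above 1 in both panels (1.14 and 1.03, then 1.29 and 1.12), while Ces2e in DA nuclei (1.15 and 0.12) lies above the Wistar sections (-0.69 and -1.09).

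Relatives and partners of the members were read from 10 lists with 167 measured non-members, among them other carboxylesterases, medium-chain acyl-CoA synthetases, claudins, lipocalins, nucleotide-sugar transporters, interferon and proteasome genes, Mlc1 partners and active-zone genes. Of 87 tested in the TLH hepatocyte gate, 5 passed the strain test (3.24% of all genes did), 4 higher in DA (1.73% of all genes) and 1 in LEW (1.51%), with a median log2 difference of 0.08 against 0.01 for all genes. Of 97 tested in nuclei 0 passed in edgeR (1.07% of all genes did) and 1 in DESeq2, with a median of -0.24 against -0.04. In edgeR 10 had an unadjusted p under 0.05. The share of all genes under that cut was not computed, so nothing is read from the 10. Without DA-1 8 listed genes passed in TLH, and without LEW-1 or LEW-2 1 did, while in nuclei 2 passed without LEW-1 and 4 without LEW-2. No listed gene passed in both data sets, and the 5 are named here after their values were seen. Acsm5, a mitochondrial relative of Acsm3, was higher in LEW, opposite to Acsm3, with 20.4 and 20.1 CPM in DA and 73.6 and 77.9 CPM in LEW cells and a log2 DA minus LEW difference of -1.91 ± 0.17 (edgeR adjusted p = 0.000301). In nuclei Acsm5 was at 68.4 and 47.6 CPM in DA and at 134.4 and 227.5 CPM in LEW, a difference of -1.68 ± 0.47 (edgeR adjusted p = 0.130). Cldn3, another claudin of tight junctions, was higher in DA by 0.98 ± 0.15 in TLH (edgeR adjusted p = 0.00758) and F11r, a junctional adhesion molecule, by 0.75 ± 0.17 (0.0383). In nuclei the differences were 0.76 for Cldn3 (edgeR adjusted p = 0.735) and -0.0998 for F11r (0.975), so F11r did not keep its direction. The interferon-induced chemokines Cxcl9 and Cxcl10 were higher in DA by 1.28 ± 0.21 (edgeR adjusted p = 0.00897) and 1.86 ± 0.40 (0.0349), and in nuclei their differences were 1.70 (0.235) and -0.25 (0.940).

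Genes beside the members were read from the RefSeq order, 3 on each side of 9 members. Of 54 neighbours 14 were tested in TLH, and 2 passed, where 3.24% of all genes did. Whether 2 of 14 exceeds that share was not tested. Pim3, a kinase gene beside Mlc1, was higher in DA by 1.20 (edgeR adjusted p = 0.00897). Gsta5, a glutathione transferase gene near Ooep, was higher in LEW, at -1.02 (0.0106). In nuclei 16 were tested and 0 passed, where 1.07% of all genes did, while 3 had an unadjusted p under 0.05 in edgeR. The share of all genes under that cut was not computed, so nothing is read from the 3. The differences in nuclei were 0.81 for Pim3 (edgeR adjusted p = 0.680) and -1.16 for Gsta5 (0.480).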

How the data were processed

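Single cells, nuclei and Visium spots of rat liver were counted in 12 libraries. Reads were aligned by the authors to a custom Rnor 6.0 reference with Cell Ranger 3.1.0, or with Space Ranger 1.1.0 for the sections (per the submitters' processing notes). The values the authors deposited are UMI counts per gene and barcode, not normalized and without the study's quality filters. The TLH barcodes together equal in number the cells that the paper gives as called by Cell Ranger. In TLH, all barcodes therefore means called cells and not all droplets. Names of the TLH and immune-enriched genes came from the same rows of the nuclei gene list.

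The study's limits on UMIs and mitochondrial share were applied, with 2000 UMIs for LEW TLH in place of the stated 1500, since this leaves the study's number of cells. Gates used markers of 5 classes other than hepatocytes, and cells that met several classes were left out, which was the treatment of doublets. The 14 hepatocyte markers gave the hepatocyte marker share of each gate and did not enter the gates. UMIs were summed per library and gate and scaled to CPM, with exact Poisson or binomial 95% intervals.

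Tests were run on the sums with the quasi-likelihood method of edgeR 4.0.16 (R 4.3.3), TMM scaling, filterByExpr and a Benjamini-Hochberg adjusted threshold of 0.05 over all genes tested. Zone and class fits had the rat as a block and an effect per strain, and DESeq2 1.42.0 was an alternative. Each SE is the absolute log2 difference divided by the square root of the edgeR F value. It rests on a dispersion partly shared over genes and does not measure the spread between the 2 rats of a strain. The steps were tested on simulated counts. The 10 genes and all lists were chosen with earlier results of these data known. Named beside the members by rule are listed genes that passed in both TLH and nuclei, and non-members near-absent in both. Other alternatives were other size factors, no filter, stricter gates and cell limits, other zone splits and markers, and each library left out. Added after seeing the data were gates without Dpt and Cxcl12, sums without the mesenchymal gate, zone parts of like depth, the immune-enriched Ooep ratio without 2 barcodes, and the full NF-kB consensus in place of a narrower one for the promoters.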

Additional observations from a re-analysis of the deposited data

Results flagged for a closer look

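By the main zone score, the zonal direction of Ces2e differed between DA nuclei and the other libraries. The log2 difference in CPM of the pericentral minus the periportal part was 1.15 and 0.12 in nuclei of DA-1 and DA-2, and -0.69 and -1.09 in Wistar sections A and B, so both DA libraries were above 0 and both sections below. LEW nuclei, of the same assay as DA, were at -1.55 and -1.28, from 8 and 6 pericentral and 27 and 16 periportal UMIs. The differences between these groups were not tested, and between DA nuclei and Wistar sections strain and assay cannot be told apart. With depth taken out of the zone score the DA values were 0.18 and -0.24 and the LEW values -1.20 and -1.09. With the shorter zone marker list they were 0.59 and -0.40 in DA and 0.27 and 0.04 in LEW. The sections were at -0.65 and -1.11 with that list. The sign in LEW thus depended on the marker list.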

How the results depend on the processing

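Lcn3 and Cldn7 in nuclei and Erc2 in TLH had too few counts for at least 1 test. The class counts below are a description, since hepatocyte counts chose the members. Listed genes called in TLH numbered 5 as reported, 16 without the filter on low counts, 2 in the stricter gate, 8 with LEW at the stated limit and 1 to 8 with a library left out. In nuclei the count was 0 as reported, 2 without the filter, 1 with DESeq2, 2 without Dpt and Cxcl12, and 0 to 4 with a library left out. Members called for zone numbered 5 as reported, 0 with DESeq2, 1 in the stricter gate, where Ubd and Acsm3 were not tested, 1 with short marker lists, 1 in zone parts of like depth, and 3 to 4 with a library left out. Of all genes, 33.5% passed for zone in DA as reported, 16.1% with DESeq2 and 27.8% in the stricter gate. The shares were 5.58% with short marker lists and 18.4% in zone parts of like depth. Each of these alternative shares was below that reported, so the lower zone counts are not read as a result about the members alone. With a library left out a strain rests on 1 library, so those zone counts are not read either. Members called for class in TLH numbered 4 as reported, where 10.4% of all genes in DA and 5.64% in LEW were higher in the hepatocyte gate. They numbered 0 with DESeq2 (1.81% and 0.647%) and 1 in the stricter gate (2.92% and 1.09%). Without Dpt and Cxcl12, 4 DA genes and 1 LEW gene were called in TLH (18.6% and 15.4%). Without the mesenchymal gate these numbers were also 4 and 1 (15.7% and 13%). In nuclei the members called numbered 0 as reported (1.24% and 0.76%). They numbered 7 without Dpt and Cxcl12 (18.6% and 9.83%) and 5 without the mesenchymal gate (11.9% and 7.69%). Genes near-absent in both data sets numbered 6 as reported, 10 at a ratio of at most 10%, 2 at 50 UMIs per rat, 16 over all barcodes and 10 without Dpt and Cxcl12. Signs turned for class differences that passed in none of these fits: Ubd in TLH at -0.0103 in the stricter gate, Ubd in nuclei at -0.25 to 0.64 with a library left out, Lcn3 in TLH at -0.10 to 0.71, Cldn7 in TLH at 0.51 without Dpt and Cxcl12, 0.13 without the mesenchymal gate and -0.058 to 0.041 with a library left out, and Erc2 in nuclei at 0.023 with DESeq2, 0.65 without Dpt and Cxcl12, 0.87 without the mesenchymal gate and -0.30 to 0.27 with a library left out. The causes were not tested.

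Replicate numbers were shared between DA and LEW, but the deviations of same-numbered libraries were correlated at -0.0853 in TLH and 0.0267 in nuclei. No pairing by number showed in this correlation over many genes, which cannot exclude one that affects some genes. With the replicate block 4 listed genes were called in TLH and 1 in nuclei. Without the rat as a block, 0 members were called for zone, where 0.748% of all genes were in DA and 0.304% in LEW. For class in TLH 0 were called, where 0.88% of all genes in DA and 0.212% in LEW were higher in the hepatocyte gate.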

Other observations

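Most Ooep UMIs of the immune-enriched LEW library lay in few barcodes, a pattern found after the values were seen. Of 95 UMIs, 60 were in 2 barcodes, with 43 and 17 each, which also held 224 of the 303 UMIs of Msln, the mesothelial surface protein mesothelin. In the 6 barcodes with at least 5 Msln UMIs Ooep was at 615 CPM, against 0.351 CPM in the rest. In the immune-enriched DA library 4 of 210 Ooep UMIs were in the 11 barcodes with at least 5 Msln UMIs, at 44.6 CPM against 4.28 CPM in the rest. In Wistar section A 1 of 18 was in the 3 spots with at least 5 Msln UMIs, and 7 were in the 50 of 2437 spots with at least 1. At least 5 Msln UMIs were found in 1 and 7 TLH barcodes of DA, with 0 Ooep UMIs, and in 3 and 4 of LEW, with 0 and 1. In nuclei of LEW-2 2 of 5 Ooep UMIs were in 2 such barcodes. No marker list of mesothelial cells was tested.

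Ubd was also counted in few leukocyte-gated cells of LEW. TLH of LEW-2 had 5 of its 34 Ubd UMIs in 2 cells of the leukocyte gate, 4 of them in a single cell, at 15.0 CPM, while 1 UMI was in the hepatocyte gate. The immune-enriched LEW library had its 2 Ubd UMIs in 1 cell of the leukocyte gate.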
